A study of Homo sapiens with 6 samples.

Results

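The epidermal growth factor (EGF) receptor family and its ligands were examined in prostate cancer cells before and after selection for passage through an endothelial layer. The 10 members were chosen by name: the receptors EGFR, ERBB2 and ERBB3, the ligands TGFA, AREG, EREG, HBEGF, BTC and NRG1, and the inhibitor ERRFI1. Every probe set that the platform annotation assigns to exactly 1 gene symbol was taken when that symbol was a member, which gave 35 of the 54675 probe sets on the array. These 35 belonged to 9 of the 19775 genes with such a probe set, and AREG is not analysed here. A filter on low signal left 23 probe sets of 8 genes for testing, and the 6 probe sets of NRG1 were among the 12 below it.

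Total RNA of 3 lines was hybridised to 6 arrays, 2 for each line. PC-3 is a human prostate cancer line established from a bone metastasis. TEM4-18 and TEM2-5 are sublines of PC-3, obtained in separate experiments from cells that had migrated across a monolayer of human lung microvascular endothelial cells. All 3 lines grew in DMEM/F12 medium with 10% fetal bovine serum, and no line carried an engineered allele or drug treatment in its labels. Each TEM line is a single isolate, so a difference from PC-3 describes that isolate. Whether the arrays of 1 line stem from independent cultures is not in the labels, so the p-values reflect array-to-array spread, possibly only technical. Both TEM lines were compared with the same PC-3 arrays, and their differences from PC-3 are therefore not independent of each other.

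EGF receptors are membrane tyrosine kinases that pair when a ligand binds and then phosphorylate each other's tails, which recruit adaptors of the RAS, PI3-kinase and phospholipase C pathways. EGFR binds TGF-alpha, amphiregulin, epiregulin, HB-EGF and betacellulin, ERBB3 and ERBB4 bind neuregulins, and ERBB2 has no known ligand of its own and acts as a preferred partner. The ligands are made as membrane-anchored precursors that proteases release, and autocrine loops of EGFR and its ligands have been described in androgen-independent prostate cancer cells.

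Promoter sequence from a RefSeq table of build GRCh38.p14 was used for 8 of the 10 members. This gave 10 promoters, from 250 bases before to 50 bases after a transcription start. No promoter of ERBB3 or NRG1 is included, so the motif counts of the member promoters leave these genes out. The ligand genes TGFA and BTC are shown because both fell in both TEM lines. The sequences below are the 250 bases that precede the start and the first exon, on the gene's own strand, and each runs 5′ to 3′. TGFA start 1 lies at chr2:70553827-70554076 on the minus strand, and its capitals mark GC boxes, the letters GGGCGG or their reverse complement CCGCCC. The BTC promoter lies at chr4:74794524-74794773 on the minus strand, and its capitals mark an E-box, the letters CACCTG or their reverse complement CAGGTG.
TGFA start 1: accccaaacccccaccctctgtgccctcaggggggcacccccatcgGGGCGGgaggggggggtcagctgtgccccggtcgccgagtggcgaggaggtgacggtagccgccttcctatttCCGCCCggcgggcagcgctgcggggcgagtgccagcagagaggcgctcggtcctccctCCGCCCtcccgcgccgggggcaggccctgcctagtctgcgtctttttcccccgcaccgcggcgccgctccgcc
BTC: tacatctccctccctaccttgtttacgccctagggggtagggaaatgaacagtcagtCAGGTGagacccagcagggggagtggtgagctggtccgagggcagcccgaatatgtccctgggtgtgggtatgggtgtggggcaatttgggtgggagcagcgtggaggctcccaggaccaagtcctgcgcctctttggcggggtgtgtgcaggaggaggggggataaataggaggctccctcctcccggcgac

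The GC boxes of TGFA start 1 begin 204, 131 and 73 bases before the start, with another 45 bases into the transcript that is not printed, and no E-box was found in its 300 bases. The E-box of BTC begins 193 bases before its start. Over both strands, an E-box of these letters was present in 5 of the 10 member promoters, a GC box in 6 and the TATA letters TATAAA or TTTATA in 3. Among all 35116 promoters of the same length in the table, the shares were 20.6%, 45.0% and 11.5%. In the member promoters no match of 1 motif shared letters with a match of another, and a match describes the letters of a window, not bound protein.

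The E-boxes of the 4 measured ligands are shown side by side because these ligand genes were lower in TEM4-18 than in PC-3. Each window holds 30 bases with the E-box in capitals. The TGFA window is chr2:70553471-70553500, minus strand, 42 bases before TGFA start 2 and downstream of start 1. The EREG window is chr4:74364978-74365007, plus strand, with the E-box 155 bases before the start. The HBEGF window is chr5:140346824-140346853, minus strand, 248 bases before the start, and the BTC window is chr4:74794699-74794728, minus strand.
TGFA start 2: cgtgcgtgagaaCACCTGggaaggggaagc
EREG: aaccactactctCAGGTGctccagggaggg
HBEGF: gcCACCTGccggtcagtagccctacccaca
BTC: tgaacagtcagtCAGGTGagacccagcagg

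Each window was cut around an E-box, so the 4 windows share the 6 letters of the motif by choice. The orientation is CACCTG for TGFA and HBEGF and CAGGTG for EREG and BTC. No E-box of these letters was found in the 300-base windows of EGFR, ERBB2 or ERRFI1. AREG, whose RNA is not analysed here, had an E-box beginning 19 bases before its start.

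In TEM4-18, all 8 tested members were lower than in PC-3, from a 1.33-fold lower mean signal for ERRFI1 to 34.0-fold for TGFA. In TEM2-5, ERBB3, TGFA and BTC were lower than in PC-3, by 3.39-fold, 2.57-fold and 2.32-fold. By probe set, 17 of 23 passed the test as lower in TEM4-18, where 12.9% of all tested probe sets did, and 8 of 23 as lower in TEM2-5, where 7.65% did. By gene, taking the brightest probe set, these were 8 of 8 against 16.1% of all genes and 3 of 8 against 10.1%. No member probe set passed as higher in either TEM line with limma and Benjamini-Hochberg adjustment. At an unadjusted p under 0.05, 0 were higher in TEM4-18 and 1 in TEM2-5. Since low members were left out of the test, these counts describe the members whose mean signal over all arrays passed the filter. A member could pass it through its signal in PC-3 while low in a TEM line, as EREG did in TEM4-18. The members were chosen with earlier results of these data known, so the counts are not independent of those results. In bulk RNA, fewer cells expressing a gene and less RNA per cell cannot be told apart.

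The median difference over the 23 probe sets was -0.85 for TEM4-18 minus PC-3 and -0.42 for TEM2-5 minus PC-3, on the log2(signal + 51.8) scale. Over all tested probe sets these medians were -0.00 and 0.01. The constant 51.8 keeps small signals from dominating, and it understates the change of genes with low signal. A difference was called when its adjusted p was under 0.05 over all 32518 probe sets. The line means ran in the order PC-3, TEM2-5, TEM4-18 from high to low in 17 of the 23 probe sets and in 7 of 8 genes, with ERRFI1 the exception. How many of all tested probe sets or genes ran in that order was not counted, so it is not shown to be particular to the members. Of neighbours in that order, PC-3 and TEM2-5 differed past the threshold for ERBB3, TGFA and BTC, and TEM2-5 and TEM4-18 for TGFA. For ERRFI1 the order was TEM2-5, PC-3, TEM4-18, and PC-3 and TEM4-18 were the neighbours that differed.

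**Figure D1:**
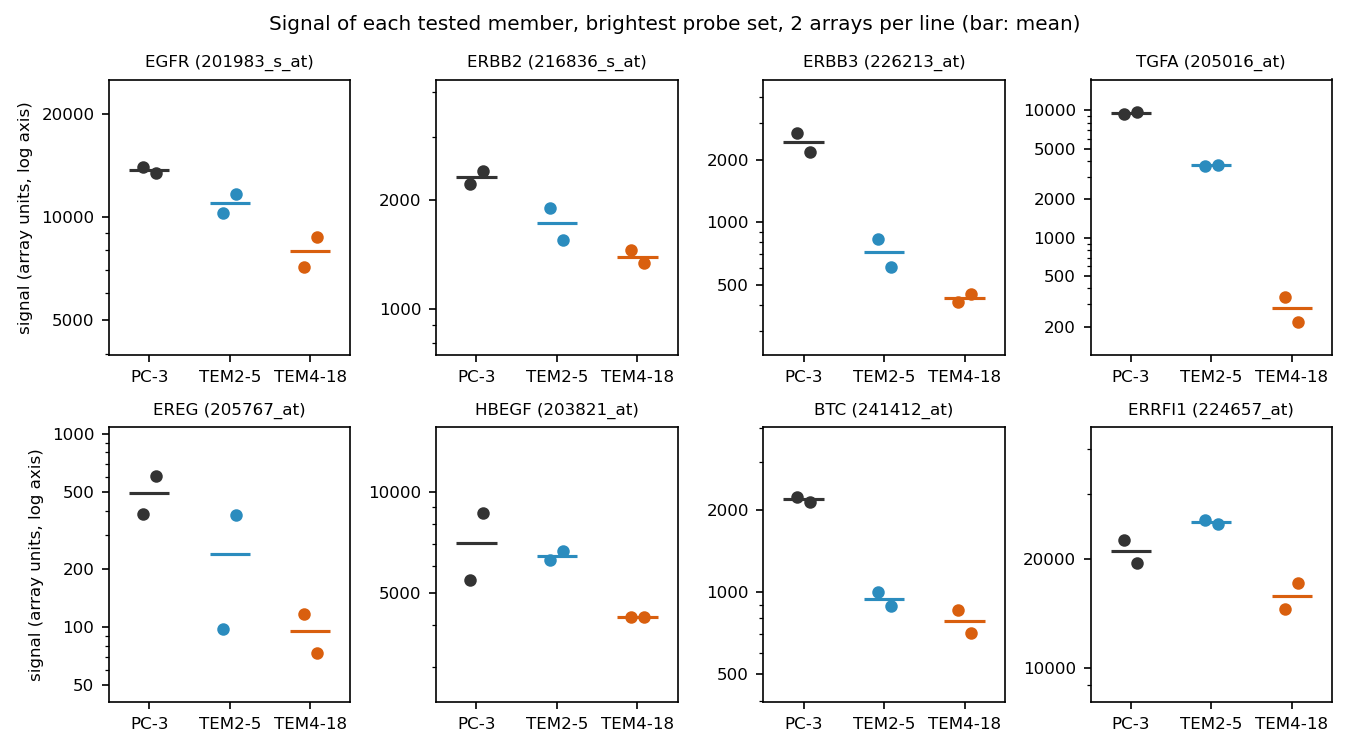
Deposited signal intensity (log axis) of the brightest tested probe set of each of 8 members on each of the 6 arrays; points are arrays and short bars are line means (n = 2 per line). TGFA spans from 217 to 9709, and the TEM4-18 arrays lie below both PC-3 arrays for all 8 genes. How many of all tested genes separate this way was not counted.

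EGFR, the receptor for TGF-alpha and the other EGF-like ligands, was lower in TEM4-18. On its brightest probe set (201983_s_at) the signals were 14007 and 13425 in PC-3, 7141 and 8763 in TEM4-18, and 10299 and 11678 in TEM2-5. Every TEM array lay below both PC-3 arrays, and the TEM4-18 arrays lay below the TEM2-5 arrays. The means were 13716 ± 412, 7952 ± 1146 and 10988 ± 975 (SD, n = 2). TEM4-18 differed from PC-3 by -0.79 ± 0.11 (SE, log2 scale; 95% interval -1.03 to -0.55; limma adjusted p = 0.000351). TEM2-5 differed by -0.32 ± 0.11 (adjusted p = 0.0674), which did not pass, with an interval of -0.56 to -0.08. It passed in 4 of 14 alternative settings: with the replicate block (0.0325), with only the 4 arrays of both lines (0.0339), and without TEM4-18 replicate 1 (0.036) or TEM4-18 replicate 2 (0.0372).

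The other EGFR probe sets did not all give the same call. On 201984_s_at the signals were 4905 and 5132 in PC-3, 2179 and 2469.6 in TEM4-18, and 2831 and 3344 in TEM2-5, so that no line's arrays overlapped another's. This probe set passed in both comparisons, at -1.10 ± 0.12 for TEM4-18 (adjusted p = 8.82e-05) and -0.70 ± 0.12 for TEM2-5 (adjusted p = 0.00319). On 224999_at the difference was -0.85 in TEM4-18 (adjusted p = 0.00118) and -0.36 in TEM2-5 (adjusted p = 0.111; 0.0115 with the replicate block). In all, EGFR was represented by 9 probe sets, of which 7 were tested, 5 passed as lower in TEM4-18 and 1 in TEM2-5. Of these 5, 210984_x_at (-0.70, adjusted p = 0.0109) and 211607_x_at (-0.54, adjusted p = 0.0447) carry the suffix that marks probes able to match related sequences. The call of 210984_x_at was lost without PC-3 replicate 1 (adjusted p = 0.0807) or TEM4-18 replicate 2 (0.0655), and that of 211607_x_at remained in 4 of 14 alternative settings. The tested probe sets 1565484_x_at (-0.22 and -0.61) and 211551_at (-0.35 and -0.36) did not pass in either TEM line.

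ERBB2, the ligand-less partner receptor, was lower in TEM4-18. Its brightest probe set (216836_s_at) read 2225 and 2411 in PC-3, 1454 and 1338 in TEM4-18, and 1909 and 1549 in TEM2-5. The 3 lines did not overlap, with TEM2-5 between the other lines. TEM4-18 minus PC-3 was -0.71 ± 0.14 (limma adjusted p = 0.00417), a 1.66-fold lower mean signal. For TEM2-5 the difference was -0.42, with an interval of -0.73 to -0.10 and an adjusted p of 0.0738. The second tested probe set of ERBB2 (210930_s_at) gave -0.46 and -0.62 with adjusted p of 0.351 and 0.242, and its TEM4-18 arrays overlapped those of PC-3.

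ERBB3, a receptor with weak kinase activity of its own that carries docking sites for PI3-kinase, showed the widest range among the receptors. Its brightest probe set (226213_at) read 2697 and 2188 in PC-3, 414 and 453 in TEM4-18, and 830.4 and 609 in TEM2-5. Both TEM lines lay far below PC-3 and did not overlap each other. The mean signal was 5.63-fold lower in TEM4-18 (-2.36 ± 0.19, adjusted p = 1.22e-05) and 3.39-fold lower in TEM2-5 (-1.70 ± 0.19, adjusted p = 0.000266). A second probe set (202454_s_at) read 1753 and 1388, then 522 and 381, then 594 and 399.7 in the same order of lines, and here the TEM lines overlapped each other. It passed in TEM4-18 at -1.69 (adjusted p = 0.000465) and in TEM2-5 at -1.58 (adjusted p = 0.00145). The remaining tested probe sets of ERBB3 were dim and did not pass: 1563253_s_at at -1.22 ± 0.50 and -0.29, and 215638_at at -0.30 and -0.16.

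TGFA encodes TGF-alpha, a high-affinity EGFR ligand. It had the widest range of all members. Its brightest probe set (205016_at) read 9391 and 9709 in PC-3, 345 and 217 in TEM4-18, and 3659 and 3759.6 in TEM2-5. The PC-3 arrays lay close together, as did the TEM2-5 arrays, while the TEM4-18 arrays differed more. The lines lay far apart. Mean signals were 9550.1 ± 225, 281 ± 90.7 and 3709 ± 71.3 (SD, n = 2). TEM4-18 minus PC-3 was -4.88 ± 0.17 (interval -5.25 to -4.50, limma adjusted p = 3.08e-08), a 34.0-fold lower mean signal. TEM2-5 minus PC-3 was -1.35 ± 0.17 (adjusted p = 0.000458), 2.57-fold lower.

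Both other probe sets of TGFA passed in both TEM lines. On 205015_s_at the signals were 1239.6 and 1488 in PC-3, 25.9 and 39.4 in TEM4-18, and 466 and 610.5 in TEM2-5. The TEM4-18 values there lie in the lowest range of the array, where MAS5 signals are noisy. The differences were -4.07 ± 0.28 (adjusted p = 3.44e-06) and -1.27 ± 0.28 (adjusted p = 0.0116). On 211258_s_at the signals were 1193 and 1150.5 in PC-3, 72.3 and 276 in TEM4-18, and 486 and 432 in TEM2-5. Its differences were -2.60 ± 0.38 (adjusted p = 0.000609) and -1.26 ± 0.38 (adjusted p = 0.0476). In TEM2-5, the call of 205015_s_at was lost without PC-3 replicate 2 (adjusted p = 0.116) or TEM2-5 replicate 1 (0.101), and that of 211258_s_at remained in 6 of 14 alternative settings.

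BTC encodes betacellulin, which binds EGFR and ERBB4. On its brightest probe set (241412_at) it read 2239 and 2135 in PC-3, 859 and 709 in TEM4-18, and 997 and 892 in TEM2-5. Both TEM lines were lower than PC-3 and lay next to each other without overlap. The differences from PC-3 were -1.43 ± 0.16 for TEM4-18 (adjusted p = 8.81e-05) and -1.17 ± 0.16 for TEM2-5 (adjusted p = 0.000689). TEM4-18 minus TEM2-5 was -0.26, with an interval of -0.61 to 0.09 (adjusted p = 0.58). The second probe set (207326_at) read 1012 and 912, then 329 and 326, then 493 and 504, and passed at -1.42 (adjusted p = 0.00054) and -0.88 (adjusted p = 0.015). Its TEM2-5 call was lost when any 1 of the 4 PC-3 and TEM2-5 arrays was left out (adjusted p from 0.0526 to 0.0846).

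**Figure D2:**
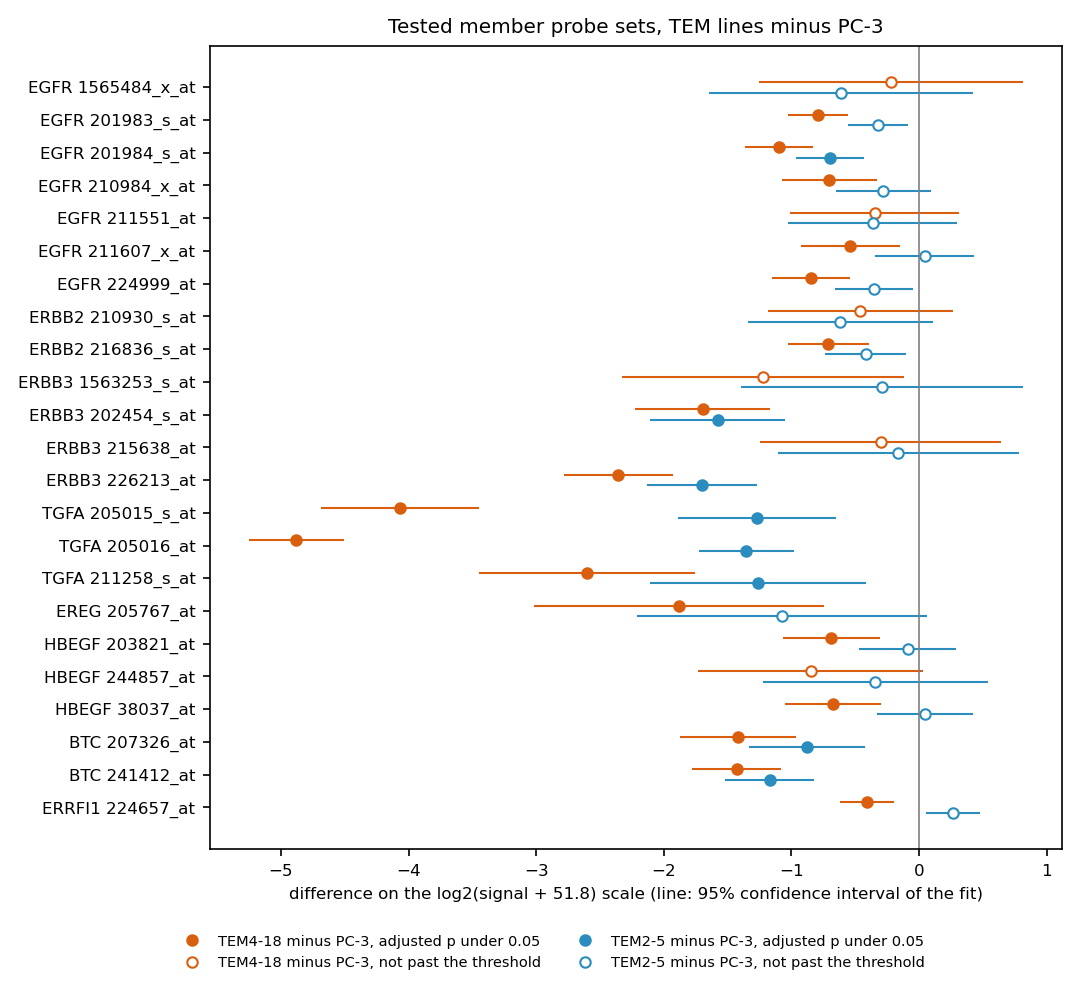
Log2 differences from PC-3 of the tested member probe sets in TEM4-18 and in TEM2-5, with 95% intervals from the limma fit (3 residual degrees of freedom). TGFA lies lowest in TEM4-18 (-4.88). The points of ERRFI1 (-0.41 and 0.27), HBEGF 38037_at (-0.67 and 0.05) and EGFR 211607_x_at (-0.54 and 0.05) lie on opposite sides of 0.

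EREG encodes epiregulin, a low-affinity ligand of EGFR and ERBB4. Its tested probe set (205767_at) read 385 and 602 in PC-3, 117 and 73.3 in TEM4-18, and 97.9 and 379 in TEM2-5. The TEM4-18 arrays lay below PC-3, while the TEM2-5 arrays were far apart from each other. Its mean was 493 in PC-3, 95.1 in TEM4-18 and 238 in TEM2-5, beside the filter of 178 on the mean over all arrays. Both TEM4-18 signals lay under 178, so its place in the test rested on the other lines, mostly PC-3. With the stricter filter, at a mean of 520, it was not tested. TEM4-18 minus PC-3 was -1.88 ± 0.51 (limma adjusted p = 0.0209). This call was lost without PC-3 replicate 2 (-1.59, adjusted p = 0.136), without TEM4-18 replicate 2 (-1.66, adjusted p = 0.0924), without the filter (0.058) and without the mean-variance trend (0.0761). TEM2-5 minus PC-3 was -1.07 ± 0.51 with an interval of -2.21 to 0.06 (adjusted p = 0.194).

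HBEGF encodes heparin-binding EGF-like growth factor. Its brightest probe set (203821_at) read 5440.4 and 8651 in PC-3, 4241 and 4241 in TEM4-18, and 6250.0 and 6641 in TEM2-5. The PC-3 arrays differed most from each other, and both TEM2-5 arrays lay between them. TEM4-18 minus PC-3 was -0.69 ± 0.17 (limma adjusted p = 0.0132), and 38037_at, another probe set, gave -0.67 ± 0.17 (adjusted p = 0.0144). On 203821_at the call was lost without PC-3 replicate 2 (-0.36, adjusted p = 0.058), TEM4-18 replicate 1 (0.0524) or TEM4-18 replicate 2 (0.0539), and without the mean-variance trend (0.11). On 38037_at it was lost without PC-3 replicate 2 (-0.38, adjusted p = 0.0967), TEM4-18 replicate 2 (0.0649) or the trend (0.0956). TEM2-5 minus PC-3 was -0.09, with an interval of -0.47 to 0.29. Without PC-3 replicate 1 that difference was -0.42 and passed (adjusted p = 0.0381), and without PC-3 replicate 2 it was 0.24 (adjusted p = 0.233). The third tested probe set, 244857_at, gave -0.85 and -0.34 and did not pass.

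NRG1 encodes neuregulin 1, a ligand of ERBB3 and ERBB4. All of its 6 probe sets were under the filter, which kept probe sets whose mean over the 6 arrays exceeded 178, and their single signals ranged from 4.79 to 277. On 208230_s_at the signals were 194 and 198 in PC-3, 57.8 and 55.8 in TEM4-18, and 74.9 and 198 in TEM2-5. On 208232_x_at they were 131 and 40.1, then 277 and 161, then 155 and 199.8. The probe sets of this gene thus did not run in one direction, and none was tested. The member probe set nearest above the filter was ERBB3 1563253_s_at with a mean of 198, and the nearest below was 208232_x_at with 161. The second probe set of EREG was also under the filter, with signals from 32.7 to 220.1.

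**Figure D3:**
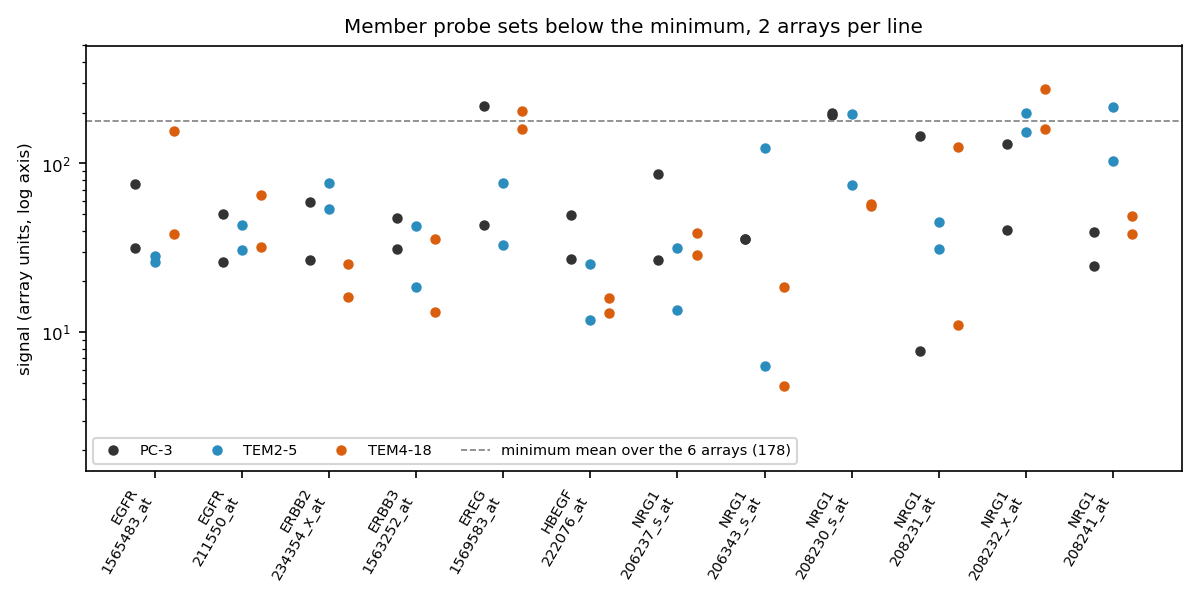
Deposited signal intensity (log axis) of the 12 member probe sets under the filter on each of the 6 arrays, by line; the line marks the filter at a mean of 178. The 6 NRG1 probe sets run from 4.79 to 277, and on each of the 12 at least 1 pair of lines overlaps.

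ERRFI1 encodes MIG6, a feedback inhibitor that binds the EGFR kinase domain. It read 22547 and 19454 in PC-3, 14502 and 17151 in TEM4-18, and 25533 and 24839 in TEM2-5 (224657_at). The TEM4-18 arrays lay below PC-3 and the TEM2-5 arrays above it, with no overlap among the lines. The means were 21000.2 ± 2187, 15826 ± 1873 and 25186 ± 491 (SD, n = 2). TEM4-18 minus PC-3 was -0.41 ± 0.10 (interval -0.62 to -0.20, limma adjusted p = 0.00988), and TEM2-5 minus PC-3 was 0.27 ± 0.10 (interval 0.05 to 0.48, adjusted p = 0.0894), which did not pass. The TEM4-18 call was lost without PC-3 replicate 1 (-0.30, adjusted p = 0.0766), TEM4-18 replicate 1 (-0.29, adjusted p = 0.0833) or the mean-variance trend (0.118).

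The direct comparison of TEM4-18 with TEM2-5 does not involve the PC-3 means. TGFA and ERRFI1 differed between these isolates, and both were lower in TEM4-18. TGFA had a 13.2-fold lower mean signal on 205016_at (-3.53 ± 0.17, interval -3.90 to -3.15, limma adjusted p = 1.34e-06) and differed by -2.80 ± 0.28 on 205015_s_at (adjusted p = 0.000476). On 205015_s_at the TEM4-18 signals lay under 51.8, so no fold is given, and the difference ranged from -4.02 to -1.63 over the alternative settings. The third probe set of TGFA, 211258_s_at, gave -1.34 ± 0.38 (adjusted p = 0.139) and passed without TEM4-18 replicate 2 (-2.04, adjusted p = 0.00679), the array that read 276. ERRFI1 differed by -0.67 ± 0.10 (interval -0.89 to -0.46, adjusted p = 0.00504). That call was lost without TEM2-5 replicate 1 (-0.65, adjusted p = 0.0563) and without the mean-variance trend (0.224).

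By probe set, 3 of 23 passed as lower in TEM4-18 than in TEM2-5, where 1.44% of all tested probe sets did, and by gene 2 of 8, where 2.27% did. No member probe set passed as higher with limma, and 0 had an unadjusted p under 0.05 in that direction against 13 in the other. Among the genes that missed the threshold, ERBB3 gave -0.65 (interval -1.08 to -0.22), EGFR -0.47 (-0.71 to -0.23) and HBEGF -0.60 (-0.98 to -0.22). The p-values of EGFR (0.0599) and HBEGF (0.139) moved across the threshold in 4 and 3 of 14 alternative settings. These included leaving out TEM4-18 replicate 2 for EGFR (adjusted p = 0.0306) and either PC-3 array for HBEGF (0.0116 and 0.0129). ERBB2 (-0.29, interval -0.61 to 0.02) and EREG (-0.81, interval -1.94 to 0.33) did not pass either, and these intervals include 0.

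**Figure D4:**
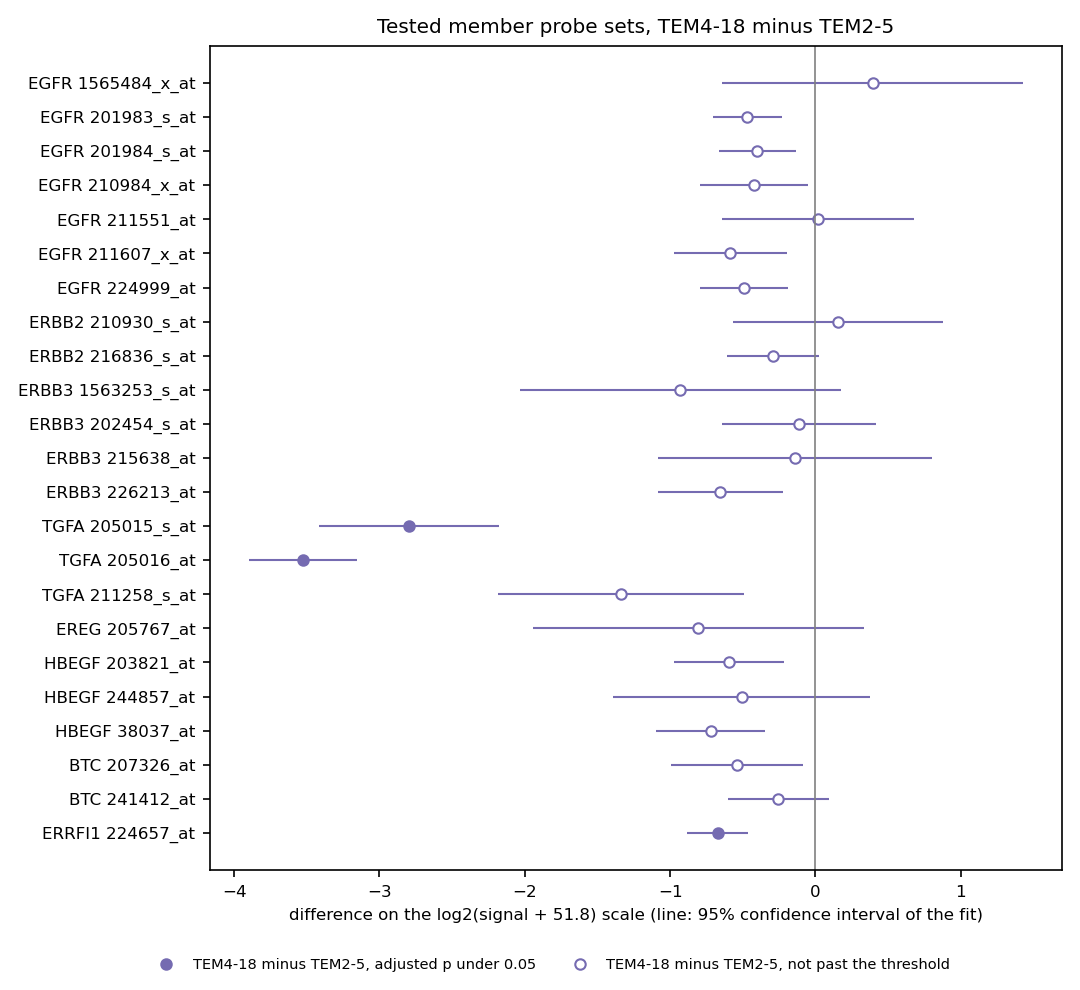
Log2 difference TEM4-18 minus TEM2-5 of the tested member probe sets, with 95% intervals; filled points passed an adjusted p of 0.05. The 3 that passed are 2 probe sets of TGFA (-3.53 and -2.80) and ERRFI1 (-0.67).

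The other genes of the pathway were taken from 4 lists of 51 genes, chosen by role with earlier results of these data known. Of the 51 genes, 44 had a single-symbol probe set and 40 were tested. In TEM4-18, 11 of the 40 were higher than in PC-3, where 13.3% of all genes were, and 5 were lower, where 16.1% were. In TEM2-5, 7 were higher, where 9.04% of all genes were, and 2 were lower, where 10.1% were. The median differences of the 40 genes were 0.00 and 0.07, beside -0.04 and -0.02 over all 13557 tested genes. Between the TEM lines, SHC1 and SOCS4 were higher in TEM4-18, where 0.494% of all genes were, and 0 of 40 were lower with limma (2 at an unadjusted p under 0.05).

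Of the other receptors and ligands, 2 of 6 were tested. NRG2, a neuregulin that binds ERBB3 and ERBB4, read 486 and 418 in PC-3, 1471 and 1762 in TEM4-18, and 1168 and 817 in TEM2-5. It rose in TEM4-18 by 1.73 ± 0.20 (limma adjusted p = 0.000143) and in TEM2-5 by 1.03 ± 0.20 (adjusted p = 0.00638), and all 3 of its tested probe sets passed in both lines. In TEM4-18 its direction was thus opposite to that of the 4 tested ligands among the members. The TEM2-5 call of NRG2 was lost without TEM2-5 replicate 1 (0.79, adjusted p = 0.0672) and without the trend (0.0521). EGF read 610.4 and 577 in PC-3, 300.0 and 336 in TEM4-18, and 629 and 288 in TEM2-5, and its differences (-0.81 and -0.42) did not pass. The receptor ERBB4 (31.8 to 162), NRG3 (12.9 to 75.9) and NRG4 (9.2 to 24.5) stayed under the filter.

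Of the 7 genes that release ligands, all tested, 1 rose and 1 fell in TEM4-18. ADAM12, a metalloprotease able to cleave HB-EGF, read 307 and 497 in PC-3, 2023 and 1903 in TEM4-18, and 1242 and 1335 in TEM2-5. It rose by 2.18 ± 0.20 in TEM4-18 (adjusted p = 2.83e-05) and 1.59 ± 0.20 in TEM2-5 (adjusted p = 0.000536). The same call held on 3 of its 4 tested probe sets in TEM4-18 and on 2 in TEM2-5. RHBDL2, a rhomboid protease, read 775 and 619 in PC-3, 159.7 and 297 in TEM4-18, and 488 and 309 in TEM2-5. It fell in TEM4-18 (-1.45 ± 0.32, adjusted p = 0.00741; 0.0527 without PC-3 replicate 1) and gave -0.75 in TEM2-5 (adjusted p = 0.148). ADAM17, the main sheddase of TGF-alpha, gave 0.01 and -0.01 (adjusted p = 0.953 and 0.972), and ADAM10 gave -0.09 and -0.03.

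Of 21 adaptors and proximal effectors, 15 were tested, 5 rose and 1 fell in TEM4-18, and 3 rose in TEM2-5. SHC1, an adaptor that links receptors to RAS, read 10208 and 10314 in PC-3, 19797 and 19398 in TEM4-18, and 14924 and 13748 in TEM2-5. The lines did not overlap, and both of its probe sets passed in both lines. Its differences were 0.93 ± 0.07 (adjusted p = 9.4e-06) in TEM4-18 and 0.48 ± 0.07 (adjusted p = 0.00168) in TEM2-5. PLCG1, a phospholipase C that EGFR phosphorylates, rose by 0.88 ± 0.12 (adjusted p = 0.000294) and 0.62 ± 0.12 (adjusted p = 0.00462), on 1 of 2 probe sets. The mean of both PLCG1 probe sets gave 0.25 in TEM2-5 and did not pass (adjusted p = 0.2). SOS1, an exchange factor for RAS, rose by 0.71 and 0.44 on 1 of 4 probe sets. The mean of all SOS1 probe sets gave 0.13 and 0.14 and did not pass, and its TEM2-5 call was lost without either PC-3 array or TEM2-5 replicate 2 (adjusted p from 0.0935 to 0.233). GRB7, an adaptor that binds ERBB2, fell in TEM4-18 (-0.91 ± 0.27, adjusted p = 0.0297). That call was lost without PC-3 replicate 1 (0.136), PC-3 replicate 2 (0.0565) or TEM4-18 replicate 2 (-0.46, 0.193).

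Of 17 genes of receptor turnover and restraint, 16 were tested, 4 rose and 3 fell in TEM4-18, and 2 rose and 2 fell in TEM2-5. SOCS4, a suppressor of cytokine signalling that has been linked to EGFR degradation, read 6652 and 7399.8 in PC-3, 16056 and 16598 in TEM4-18, and 11956 and 11406 in TEM2-5. It rose by 1.21 ± 0.08 (adjusted p = 3.25e-06) and 0.73 ± 0.08 (adjusted p = 0.00025), on both of its probe sets. CBLC, a ubiquitin ligase of the CBL family, read 492 and 649 in PC-3 and between 19.1 and 30.8 on the 4 TEM arrays. Both of its differences were -3.01 ± 0.58 (adjusted p = 0.00325 and 0.00564), and both calls were lost without PC-3 replicate 2 (-2.83, adjusted p = 0.0654 and 0.0957). LRIG3, a leucine-rich repeat membrane protein, fell in TEM4-18 (-1.39 ± 0.29, adjusted p = 0.0049) and gave -0.87 in TEM2-5 (adjusted p = 0.0636). EPS15, an endocytic substrate of EGFR, fell by 0.59 in TEM4-18 (adjusted p = 0.00148) and by 0.44 in TEM2-5 (adjusted p = 0.014), on 1 of 2 probe sets. The mean of both EPS15 probe sets gave -0.19 and -0.13 and did not pass, and the TEM2-5 call was lost without PC-3 replicate 1 (0.0666) or TEM2-5 replicate 1 (0.104).

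Between the TEM lines, SHC1 (0.45 ± 0.07, adjusted p = 0.0124) and SOCS4 (0.48 ± 0.08, adjusted p = 0.0161) were higher in TEM4-18. In this comparison the SHC1 call held on both of its probe sets and the SOCS4 call on 1 of 2. The SHC1 call was lost without TEM4-18 replicate 1 (0.0745), TEM4-18 replicate 2 (0.0725) or TEM2-5 replicate 2 (0.121). The SOCS4 call was lost when any 1 of the 4 TEM arrays was left out (adjusted p from 0.0619 to 0.129).

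**Figure D5:**
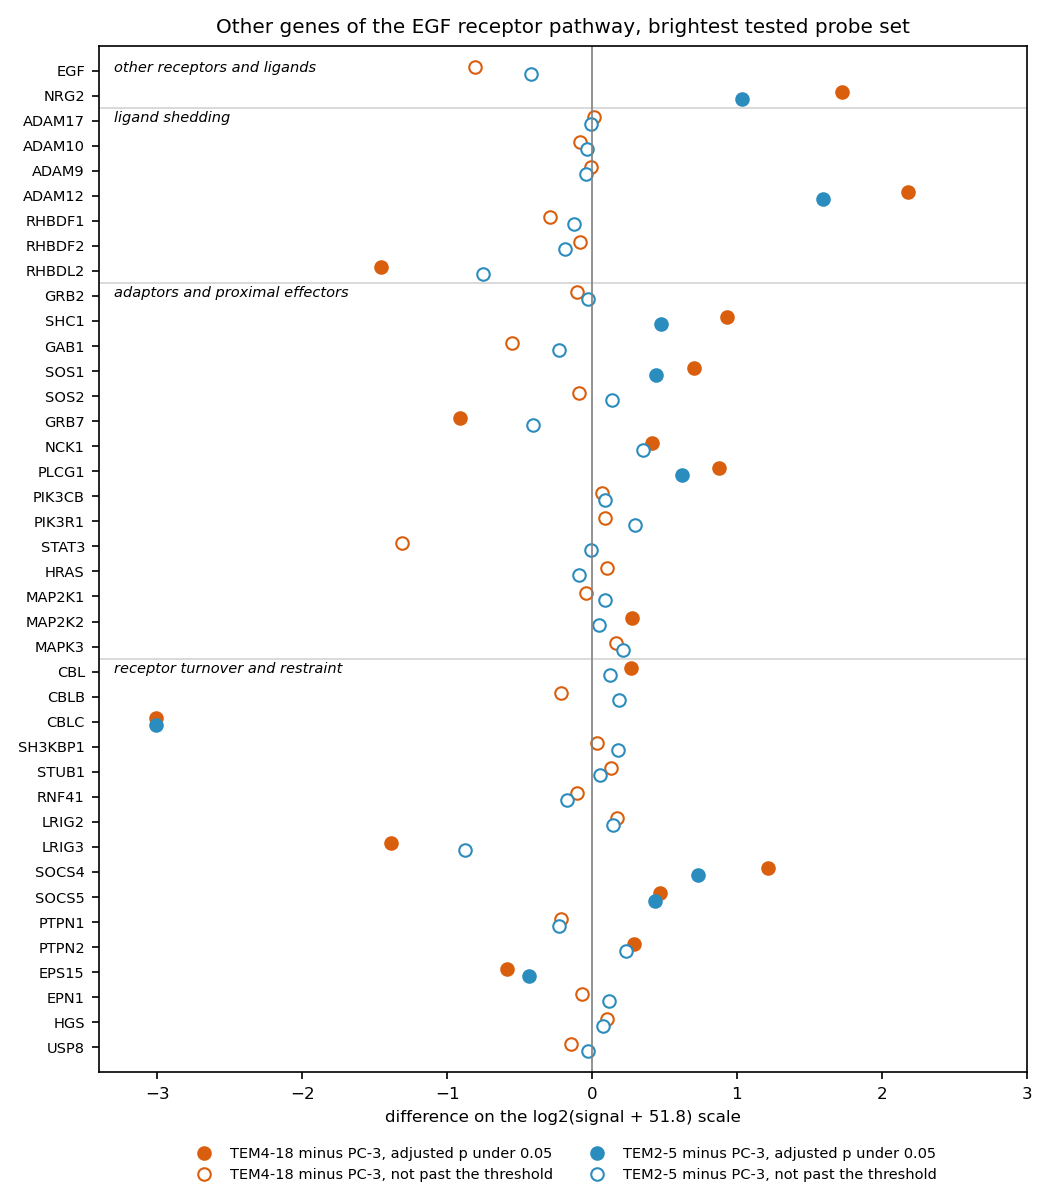
Log2 differences from PC-3 of the 40 tested pathway genes in TEM4-18 and TEM2-5, grouped by list; filled points passed an adjusted p of 0.05. ADAM12 (2.18) lies highest in TEM4-18, and CBLC (-3.01), which passed the filter only through PC-3, lowest. In TEM4-18 11 of the 40 passed as higher and 5 as lower.

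Genes with patterns most like those of the 4 members of widest range were ranked by the root mean square difference of centred log2 values over the 6 arrays, among 13557 genes. For TGFA they were GATA2 (0.156), PRRG4 (0.338) and S100P (0.348). Those values compare with a range of 4.88 for TGFA itself between its line means. For ERBB3, with a range of 2.36, they were CAPS (0.0662), SORBS2 (0.107) and MX1 (0.118). For EREG, with a range of 1.88, they were SLC5A2 (0.146), TTC39A (0.302) and PACSIN1 (0.323). For BTC, with a range of 1.43, they were LLGL2 (0.0560), MAPK13 (0.0755) and SLC2A1 (0.0788). The 6 arrays are only 3 lines, so many genes can share such a pattern.

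Across the 6 arrays the 2% trimmed mean signal lay between 1500.17 and 1500.18, the median between 267 and 317, and the 3′ to 5′ signal ratio between 1.14 and 1.22 for ACTB and between 0.923 and 0.986 for GAPDH. Of 12 endothelial markers, all measured, 5 passed the filter. Their summed signal was 2961 to 3184 in PC-3, 4153 to 5381 in TEM4-18 and 4432 to 4628 in TEM2-5. Of these 5, KDR read 146 to 306 in PC-3 and 975 to 1870.0 in the TEM lines, ESAM 267 to 291 in PC-3, 815 to 827 in TEM4-18 and 454 to 527 in TEM2-5, and ROBO4 447 to 648 in PC-3 and 849.6 to 1094 in the TEM lines. PECAM1 read 505 to 1073 over the 6 arrays, and EGFL7 read 391 to 497 in PC-3 and 272 to 313 in the TEM lines. The other endothelial markers CDH5, VWF, TIE1, TEK, CLDN5, ERG and EMCN stayed under the filter. The 8 measured leukocyte markers of 10 summed to between 1491 and 1945 on all arrays. The 10 fibroblast markers, 5 above the filter, summed to 8603 to 10283 in PC-3 and 19530 to 23799 in the TEM lines, and COL1A1 alone held 6869 to 8299 and 18052 to 22388 of these. The 8 measured prostate and epithelial markers of 10, which label the tissue of origin, summed to 181508 to 190628 in PC-3, 74068 to 81036 in TEM4-18 and 85292 to 93230 in TEM2-5. Of this list, KRT8, KRT18, KRT19, EPCAM and CDH1 were lower on every TEM array than on both PC-3 arrays. HOXB13 was higher (5895 to 7630 in PC-3, 8744 to 11073 in the TEM lines), while KLK3 (770 to 1301) and FOLH1 (58.0 to 199) overlapped. The median fibroblast marker read 166 to 185 in PC-3, 53.1 to 87.6 in TEM4-18 and 134 to 312 in TEM2-5. Of the other fibroblast markers above the filter, LUM was lower (473 to 760 in PC-3, 2.95 to 42.3 in TEM4-18, 198 to 316 in TEM2-5). THY1 was higher (156 to 187, 218 to 290 and 302 to 338). COL3A1 was lower in TEM4-18 and higher in TEM2-5 (170 to 188, 24.7 to 84.9, and 308 on both arrays), and DCN (211 to 458) overlapped. The prostate and epithelial sum was thus lower in both TEM lines, and the leukocyte sums of the lines overlapped. The endothelial and fibroblast sums were higher in the TEM lines, the fibroblast sum mainly through COL1A1. The part of these in the results was not tested.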

How the data were processed

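RNA of PC-3, TEM4-18 and TEM2-5 was measured on 2 arrays each. The authors deposited 1 linear intensity per probe set and array, which the submitters' processing notes credit to MAS5 (version not given). Nothing was normalized again. Genes were named through the platform annotation: 41097 probe sets had 1 symbol, 1801 several and 11777 none, and 62 controls were left out. Low MAS5 values are noisy, and the number of arrays limits the precision.

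Intensities were transformed to log2(value + 51.8), the 20th percentile of all values. Probe sets with a mean over 178, the 40th percentile, were kept (32518, or 13557 genes by their brightest probe set). Models with 3 line means were fitted to all 6 arrays with limma 3.58.1 in R 4.3.3 (lmFit, eBayes with a mean-variance trend, 3 residual degrees of freedom, two-sided, Benjamini-Hochberg over all probe sets). The code was tested on simulated data. Titles gave line and replicate number; 1 TEM2-5 array titled 2 carries the number 1 in its source name. Arrays were not paired by number in the main fit. Deviations from the line means correlated at 0.06 to 0.10 over all tested probe sets, with 2 numbers. The array median was higher on number 1 than on number 2 in each line (317 and 282 in PC-3, 296 and 267 in TEM4-18, 310 and 281 in TEM2-5). Whether the numbers mark a batch was not tested.

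All members are named. Pathway genes are named where past the threshold against PC-3, up to 4 a list by size of difference, with the other receptors and ligands that had a probe set. Members and lists were chosen with earlier results of these data known. The 15 alternatives cover pseudocount, filter, normalization, trend, arrays in the fit, probe set averaging, replicate block and leaving out each array. Promoters are RefSeq's, build GRCh38.p14; the labels name no build.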

Additional observations from a re-analysis of the deposited data

Results flagged for a closer look

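The differences of TEM4-18 and TEM2-5 from PC-3 were not equal for 3 member probe sets, by the test of TEM4-18 minus TEM2-5, which is the difference between the 2 lines' differences (limma with Benjamini-Hochberg adjustment). TGFA gave -3.53 (adjusted p = 1.34e-06) on 205016_at and -2.80 (adjusted p = 0.000476) on 205015_s_at, and all TEM4-18 arrays lay below all TEM2-5 arrays on both. ERRFI1 gave -0.67 (adjusted p = 0.00504), with TEM4-18 below PC-3 and TEM2-5 above it on every array.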

How the results depend on the processing

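Over the 15 alternatives, the 8 members' single differences kept direction and call in 331 cases, lost the call in 13, gained it in 12 and reversed in 1: HBEGF in TEM2-5 against PC-3 without PC-3 replicate 2 (0.24; -0.42 to 0.24 over arrays left out). Leaving out single arrays gave 12 to 16 member probe sets called in TEM4-18 against PC-3 (17 with all), 5 to 9 in TEM2-5 (8 with all; 5 without PC-3 replicate 2 or TEM2-5 replicate 1) and 2 to 5 between the TEM lines (3 with all; 5 without either PC-3 array or TEM4-18 replicate 2). For pathway genes these ranges were 11 to 15 (16 with all), 6 to 9 (9 with all) and 0 to 2 (2 with all; 0 without either TEM4-18 array or TEM2-5 replicate 2, where 5 to 8 had an unadjusted p under 0.05, and 1 without TEM2-5 replicate 1). Averaging all probe sets of a gene gave 10 pathway genes in TEM4-18. Without the mean-variance trend, 4 pathway genes were called in TEM2-5 and 0 between the TEM lines (5 at an unadjusted p under 0.05, limma), and over all probe sets the calls were 5404, 2353 and 127, beside 8390, 5331 and 584. Without the filter, 300 probe sets were called between the TEM lines. Leaving out an array gave as few as 2842 of these calls in TEM2-5 and 220 between the TEM lines. Fitting only the 4 arrays of the TEM lines gave 5 member probe sets. With the replicate block, a term for the array number, 6 member probe sets were called between the TEM lines and 10 in TEM2-5. Over all probe sets the block gave 9441 calls in TEM4-18, 6433 in TEM2-5 and 871 between the TEM lines. The cause of these changes was not tested. Values near or under 51.8, such as those of TGFA 205015_s_at and CBLC in TEM lines, limit the size of a difference that can be given.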

Other observations

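In the list of receptor turnover and restraint, LRIG1, a leucine-rich repeat protein that restrains EGF receptors, was under the filter on all 4 of its probe sets. It was not tested, and it is named here after its values were seen. It read 298 and 368 in PC-3, 8.09 and 39.7 in TEM4-18, and 28.3 and 87.8 in TEM2-5, so that all TEM arrays lay below both PC-3 arrays, in the range where MAS5 signals are noisy.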
